A study of Mus musculus with 34 samples.

Results

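Expression of Ces1d, which encodes the lipid ester hydrolase carboxylesterase 1D, and of 9 further genes of triglyceride lipolysis and storage was followed in the left ventricle (LV) of mice after myocardial infarction (MI). The genes were taken by symbol, and 10 of 10 were found among the 14552 genes of the first of the deposited tables and among the 17406 genes of the second. Ces1d was selected by the study with a rule that used its mRNA change post-MI, and the libraries of the first table entered that rule. Its values in the first table are therefore a description without a test, and Ces1d was tested only in the second table. The other genes were listed for their roles, with earlier results of these data known. They are the lipases Pnpla2, Lipe, Mgll and Lpl, the lipase regulators Abhd5 and G0s2, and the lipid droplet coat proteins Plin2 and Plin5. The last is Dgat2, which makes triglyceride.

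All mice were of the CFW strain, and their genotype and age are not given in the labels. The first table holds 3 sham hearts, 3 hearts 4 h post-MI and 4 hearts 24 h post-MI, none of them injected. Its controls are named sham in the sample titles and the methods, whereas another label field gives no operation for them. The second table holds 2 uninjected hearts labelled sham operation with a time of 4 h, and hearts injected with modified mRNA (modRNA) in the border zone of the infarct right after ligation, namely 4 with Luc and 4 with AC modRNA at 4 h, 3 and 3 at 24 h, and 4 and 4 at 48 h. Luc stands for luciferase, AC is not spelled out in the labels, and the labels and the methods differ in the modRNA dose. In every MI group the left anterior descending artery was ligated for good, and each library came from 1 mouse. The methods name the ischemic area (or its equivalent in sham hearts) as the source of RNA for the first table. There was no sham heart with an injection and none at 24 or 48 h. The sham and 4 h libraries of the second table carry 1 run of sample numbers, the 48 h libraries another, and the 24 h libraries none but the letters Br, which the labels do not explain. A difference between these times cannot be told apart from a difference between these sets, whereas AC and Luc libraries of 1 time fall in the same set. The methods describe the handling of the first table only. The values are CPM, read counts that the authors scaled to library size, and levels of the separately normalized tables were not tested against each other.

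Cells store fatty acids as triglyceride in lipid droplets. Pnpla2 (adipose triglyceride lipase) removes the first fatty acid with the help of its activator Abhd5 and is inhibited by G0s2, Lipe (hormone-sensitive lipase) removes the next, and Mgll (monoglyceride lipase) the last. Perilipins such as Plin2 and Plin5 coat the droplet and control access of these lipases, Lpl frees fatty acids from circulating lipoproteins at the capillary wall, and Dgat2 catalyses the last step of triglyceride synthesis. Ces1d, known from liver and adipose tissue, is a hydrolase of the endoplasmic reticulum that acts on triglyceride. The beating heart draws much of its energy from fatty acids supplied by these steps.

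The 10 genes lie at the following mm10 positions, given as the GENCODE M21 gene spans. Ces1d (chr8:93166072-93197805, minus strand) sits in the cluster of Ces1 genes, beside Ces1e (chr8:93201218-93229620, minus strand). Lpl (chr8:68880555-68906933, plus strand) is on the same chromosome. Pnpla2 (chr7:141455188-141460744, plus strand), Lipe (chr7:25379527-25395988, minus strand) and Dgat2 (chr7:99153663-99182714, minus strand) share chromosome 7. Mgll (chr6:88724412-88828361, plus strand), Abhd5 (chr9:122351616-122381524, plus strand), G0s2 (chr1:193272160-193273189, minus strand), Plin2 (chr4:86656565-86670060, minus strand) and Plin5 (chr17:56111601-56117549, minus strand) are each on another chromosome.

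Short promoter sequences show which known motif letters lie near the start sites of the members, since Plin2, Plin5 and Mgll changed in the comparisons below. RefSeq promoters of 300 bases on GRCm38.p6 were found for 7 of the 10 genes (not for Ces1d, Lpl and Dgat2), 10 promoters in all. AGGTCA, the half-site of nuclear receptors, was searched on both strands and lies in the promoters of 3 genes, against 16.3% of 32851 promoters. ACGTG, the core of the hypoxia response element, was searched likewise, lies in the promoters of 3 genes and is found in 19.6% of all promoters. Both shares count promoters, whereas the members are counted by gene. The Plin5 and Mgll promoters hold 1 further separate match each, which is not shown. The ACGTG shown for Plin2, Mgll and Lipe reads CACGTG with the base before it, so it also matches on the opposite strand. Each window is written 5′ to 3′ on the strand of the gene with the motif in capitals, TGACCT being AGGTCA on the opposite strand.
Plin2, chr4:86670264-86670285: aggaccccTGACCTaagtcaga
Plin2, chr4:86670050-86670070: gggctatcACGTGgctcggag
Plin5, chr17:56117705-56117726: ctagtctgAGGTCAgccatggt
Abhd5, chr9:122351539-122351560: cgtcgggcTGACCTtccttacc
Mgll, chr6:88724361-88724381: ccgggcacACGTGgggccccg
Lipe, chr7:25396129-25396149: ggacgaccACGTGagggggcg
These letters are a description of the windows and no evidence of binding.

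In sham hearts of the first table, the level per kb of annotated exon put Lpl first at 978 ± 43.8 CPM per kb (SD, n = 3). It was followed by Pnpla2 at 79.7 ± 7.62, Dgat2 at 63.9 ± 3.003 and Ces1d at 43.3 ± 6.90 CPM per kb. Ces1d did not differ beyond its spread from its lower neighbour Plin5 (37.5 ± 6.60 CPM per kb), and Mgll, at 36.0 ± 2.10 CPM per kb, lay just beyond the SD of Ces1d. Plin2, G0s2 and Abhd5 lay between 15.6 and 19.3 CPM per kb, with Plin2 and G0s2 within their spread, and Lipe was lowest at 4.72 ± 0.473. In the second table Lpl was again first with 1008 ± 58.9 CPM per kb (n = 2), and Ces1d, with 78.3 ± 10.7, lay within the spread of its neighbours Pnpla2 (92.3 ± 39.5) and Dgat2 (63.4 ± 16.03 CPM per kb). The 2 sham hearts of the second table differed most in Lipe, with 15.4 and 41.6 CPM, and in Pnpla2, with 169 and 316 CPM.

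In uninjected hearts Ces1d stood at a similar level in sham hearts and 4 h post-MI, and was lower in each heart 24 h post-MI. The sham hearts held 71.7, 98.8 and 89.9 CPM, and the hearts 4 h post-MI held 87.1, 55.8 and 93.6 CPM. The 4 hearts at 24 h held 15.01, 21.5, 19.6 and 19.1 CPM. Every heart at 24 h was thus below every sham and 4 h heart, which overlapped with each other. Relative to sham the level was 0.216 ± 0.0465-fold at 24 h and 0.908 ± 0.274-fold at 4 h, where fold is the ratio of group means of CPM with the propagated SD. These are the mRNA values that entered the choice of Ces1d. The other Ces1 gene of the first table, Ces1e, was listed at 0.354 ± 0.118 CPM in sham hearts and 0.0463 ± 0.0202 CPM at 24 h, so few reads of the cluster were assigned to it. In the second table Ces1a, Ces1b, Ces1c, Ces1e and Ces1f each had a group mean of at most 1.28 CPM. The counting divided reads that match several genes, and reads exchanged between these related genes cannot be seen in the tables.

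**Figure D1:**
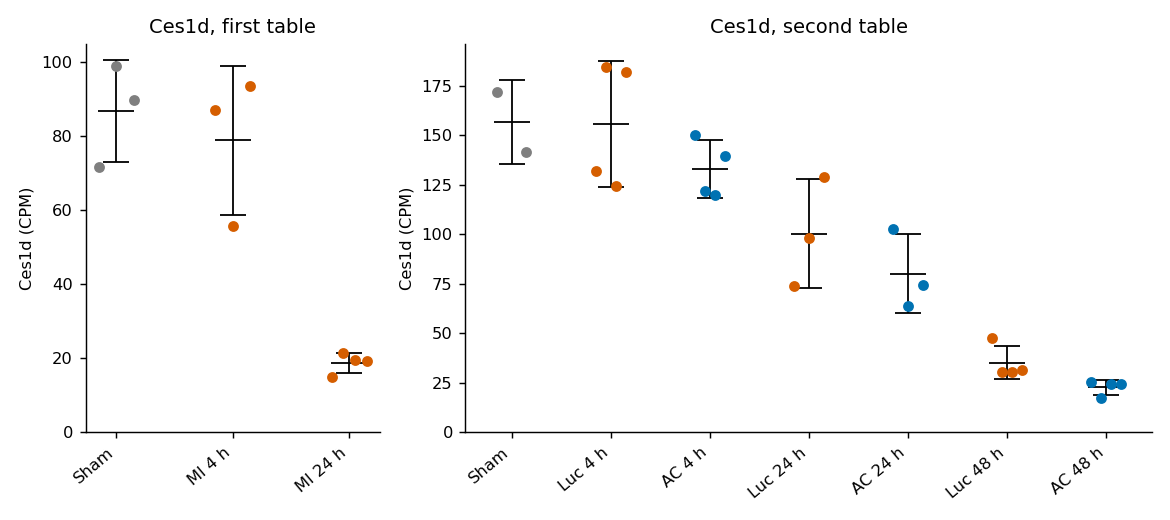
Ces1d in CPM for each library (points) with the mean and SD of each group (black), by group in the first table (left) and the second table (right). In the first table the 24 h hearts lie between 15.01 and 21.5 CPM, below all others, and in the second table the Luc and AC hearts at 48 h lie between 17.1 and 47.6 CPM, below all others.

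At 4 h in uninjected hearts, 0 of the 9 other genes differed from sham with a q value under 0.05 (limma on log2(CPM + 1), Benjamini-Hochberg over all 12487 genes tested), and 0 had an unadjusted p under 0.05. Over all genes tested, 1.55% were called higher and 0.817% lower. Their log2 fold changes ran from -0.11 for Lpl (95% confidence interval -0.66 to 0.44) to 0.19 for Dgat2 (-0.22 to 0.59), with a median of 0.00 against -0.03 over all genes.

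At 24 h the same genes split in direction: Plin2 rose, 5 genes fell and 3 were not called. Plin2, the droplet coat protein found in most cells, had 43.1, 32.5 and 33.8 CPM in sham hearts, 33.1, 40.7 and 35.2 CPM at 4 h, and 248, 268, 121 and 199 CPM at 24 h. All 4 hearts at 24 h were above all others, and the level was 5.73 ± 2.01-fold that of sham (log2 fold change 2.44, SE 0.23, q = 4.8e-06 by limma). The other droplet protein of the list, Plin5, which is typical of oxidative tissue such as heart, went the other way. It had 94.1, 70.7 and 69.7 CPM in sham hearts and 18.7, 53.7, 52.4 and 25.5 CPM at 24 h, without overlap (log2 fold change -1.16, SE 0.31, q = 0.0065 by limma).

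Dgat2 fell most among the tested genes at 24 h. It held 152, 142 and 139 CPM in sham hearts, between 151 and 177 CPM at 4 h, and 36.8, 59.4, 65.5 and 43.4 CPM at 24 h. This was 0.355 ± 0.0943-fold of sham (log2 fold change -1.51, SE 0.17, q = 1.8e-05 by limma). Lpl, the most abundant member, held 3930, 4231 and 3908 CPM in sham hearts and 1102, 1781, 2426 and 1426 CPM at 24 h (log2 fold change -1.32, SE 0.23, q = 4.5e-04 by limma). Mgll dropped from 179, 180 and 162 CPM to 74.2, 86.1, 136 and 77.9 CPM (log2 fold change -0.93, SE 0.19, q = 0.0011 by limma). Abhd5 fell least, to 0.779 ± 0.0776-fold (log2 fold change -0.35, SE 0.10, q = 0.0099 by limma), and its groups did not overlap either.

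The lipase Pnpla2 and its inhibitor G0s2 were not called at 24 h, nor was Lipe. Pnpla2 held 232, 199 and 196 CPM in sham hearts and 178, 325, 253 and 200 CPM at 24 h (log2 fold change 0.16, 95% confidence interval -0.26 to 0.57, q = 0.48 by limma). G0s2 had a log2 fold change of 0.26 (-0.07 to 0.58) and Lipe one of -0.30 (-0.74 to 0.14). Without replicate D of the 24 h group, Lipe was called lower (log2 fold change -0.46, q = 0.040 by limma) and G0s2 higher (0.36, q = 0.045). Over all genes, 35.6% were called higher and 30.3% lower, so 1 higher and 5 lower calls among 9 genes stood against a background in which 64.0% of genes had groups that did not overlap, as 6 of these 9 had. The median log2 fold change of the 9 genes was -0.35, and that of all genes 0.04. Compared with 4 h instead of sham, the same count was called, 1 higher and 5 lower (37.2% and 26.7% over all genes). Abhd5 lost that call without replicate E of the 4 h group (log2 fold change -0.22, q = 0.10 by limma). Lipe, with a log2 fold change of -0.465 (SE 0.20, q = 0.062 by limma) against 4 h, was called lower after rescaling (q = 0.034), with array weights (q = 0.021) and without 24 h replicate D (q = 0.0099) or G (q = 0.045) or 4 h replicate E (q = 0.044). G0s2 was called higher without 24 h replicate D (q = 0.032).

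The levels of cell type markers moved with these changes. The summed level of 8 cardiomyocyte markers was 46850 to 49670 CPM in sham hearts, 45420 to 49130 CPM at 4 h and 19220 to 33660 CPM at 24 h, and 5 of the 8 fell at 24 h. The 10 neutrophil and monocyte markers summed to 5.31 to 6.25 CPM in sham hearts and 459 to 2183 CPM at 24 h. Of 8 markers each, 3 macrophage markers were called higher, 3 endothelial markers higher and 3 lower, and 1 fibroblast marker higher and 4 lower. In a bulk sample fewer cells of a type and less RNA per cell cannot be told apart, and the part of these shifts in the results was not tested. Markers of atrial cardiomyocytes (Myl7, Myl4, Sln and Nppa), of which 3 of 4 are in the first table, summed to 80.5 to 296 CPM in sham hearts and 1150 to 1822 CPM at 24 h. Of these markers 2 were tested and 1 was called higher, so the sum can follow 1 gene. Adipocyte markers, 8 genes including Adipoq and Lep, summed to 8.87 to 12.6 CPM in sham hearts and 5.48 to 23.7 CPM at 24 h, and hepatocyte markers, of which 2 of 8 are in the first table, to at most 2.02 CPM.

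**Figure D2:**
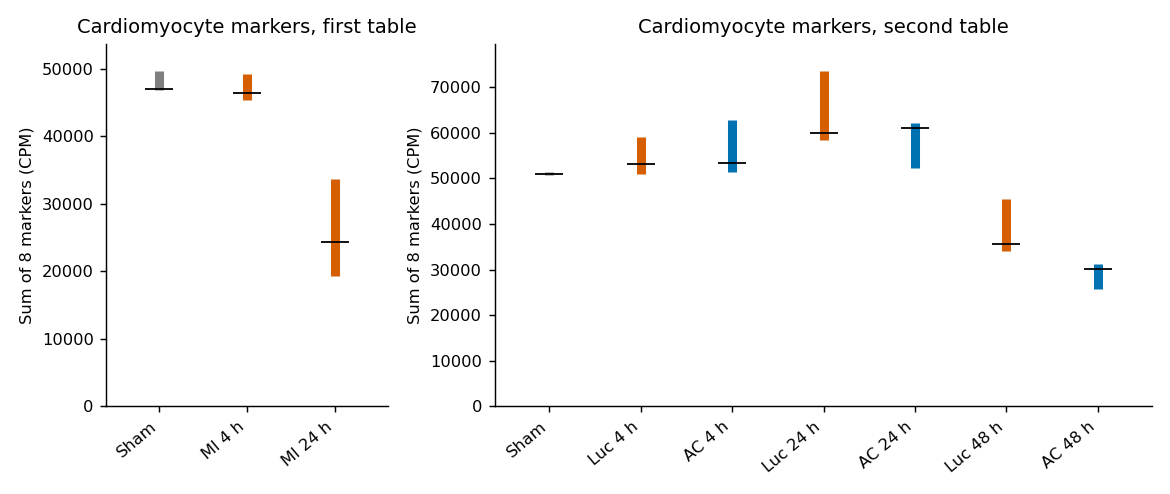
Summed level of 8 cardiomyocyte markers in CPM, as the range from the lowest to the highest library (bar) and the median (black line) of each group in the first table (left) and the second table (right). The sum falls to between 19220 and 33660 CPM at 24 h in the first table, whereas in the second table it lies between 58510 and 73650 CPM in Luc hearts at 24 h and falls only at 48 h.

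The Luc-injected hearts of the second table gave a test of Ces1d in libraries that did not enter its choice by the study. The tests run here were themselves chosen with earlier results of these data known. The 2 sham hearts held 172 and 142 CPM, and the 4 Luc hearts at 4 h held 132, 184, 125 and 182 CPM. At 24 h the 3 Luc hearts held 74.0, 98.3 and 129 CPM, and at 48 h the 4 Luc hearts held 47.6, 30.6, 30.6 and 31.4 CPM. The level was thus spread around that of sham at 4 h, was below each sham heart at 24 h, where it overlapped with the 4 h hearts, and was lowest at 48 h without overlap. The log2 fold change against sham was -0.03 (95% confidence interval -0.51 to 0.46) at 4 h, -0.67 (SE 0.25, q = 0.041 by limma) at 24 h and -2.15 (SE 0.24, q = 1.6e-06) at 48 h, where the level was 0.223 ± 0.0615-fold of sham. The drop from 24 to 48 h was called too (log2 fold change -1.48, SE 0.21, q = 2.3e-05 by limma).

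The 48 h call of Ces1d held under each of the 15 alternatives run, with log2 fold changes from -2.30 to -2.01. The 24 h call did not. Of 13 alternatives 8 lost it, and the log2 fold change then ran from -0.47 to -0.81. Leaving out Luc replicate A gave q = 0.18, Luc replicate C q = 0.072, sham replicate 1 q = 0.27 and sham replicate 2 q = 0.056 (limma). The drop of Ces1d from 4 to 24 h (log2 fold change -0.64, q = 0.021 by limma) lost its call without Luc 4 h replicate 2 (q = 0.070) or 4 (q = 0.068), or without Luc 24 h replicate A (q = 0.15) or C (q = 0.052). None of these alternatives accounts for cell markers. At 48 h the cardiomyocyte markers summed to 34070 to 45420 CPM, against 50660 to 51320 CPM in sham hearts. The part of this in the 48 h level of Ces1d was not tested.

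At 4 h in Luc hearts, 1 of the 10 genes was called, against 1.25% of the 12555 genes tested called higher and 0.295% lower. G0s2, the inhibitor of adipose triglyceride lipase, rose from 3.19 and 3.05 CPM in sham hearts to 12.7, 11.8, 7.92 and 10.5 CPM (log2 fold change 1.49, SE 0.34, q = 0.022 by limma). The groups did not overlap, as in 4 of the 10 genes and 32.5% of all genes, but the call was lost without Luc replicate 1 (q = 0.078) or 2 (q = 0.063) or without sham replicate 1 (q = 0.24) or 2 (q = 0.086). It was also lost with array weights (q = 0.055) and without the subtraction of 1 (q = 0.068). The neutrophil and monocyte markers summed to 6.29 to 27.7 CPM in sham and 83.3 to 179.8 CPM in Luc hearts at 4 h, with 4 of 9 tested called higher, and the erythrocyte markers to 196 to 647 CPM and 1723 to 2581 CPM, with 2 of 5 called higher. The part of these in the result was not tested. In the first table G0s2 had 15.6 to 18.0 CPM in sham hearts and a log2 fold change of -0.03 at 4 h (-0.38 to 0.32), and the tables were not tested against each other.

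At 24 h in Luc hearts, 6 of the 10 genes were called higher and 1, Ces1d, lower. Over all genes 25.3% were called higher and 8.79% lower. Pnpla2 rose from 169 and 316 CPM in sham hearts to 658, 549 and 715 CPM, 2.64 ± 1.18-fold (log2 fold change 1.46, SE 0.25, q = 1.7e-04 by limma). Its inhibitor G0s2 rose to 13.0, 12.5 and 16.8 CPM, 4.52 ± 0.773-fold (log2 fold change 1.86, q = 4.9e-04 by limma). Lipe rose from 15.4 and 41.6 CPM to 67.0, 50.9 and 58.5 CPM (log2 fold change 1.17, q = 0.0023 by limma), and this call was lost without sham replicate 1 (0.48, q = 0.21). The activator Abhd5 was not called, with a log2 fold change of -0.42 (95% confidence interval -0.77 to -0.07, q = 0.057 by limma). It was called lower after rescaling (-0.61, q = 0.0063) and without sham replicate 2 (-0.63, q = 0.023).

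The droplet and synthesis genes rose together with Pnpla2 at 24 h. Plin2 rose from 42.8 and 46.1 CPM to 158, 135 and 148 CPM (log2 fold change 1.70, SE 0.33, q = 5.4e-04 by limma). Dgat2 rose from 118 and 169 CPM to 293, 299 and 338 CPM (log2 fold change 1.13, SE 0.22, q = 4.9e-04 by limma). Plin5 rose from 70.9 and 79.8 CPM to 168, 110 and 171 CPM (log2 fold change 0.955, SE 0.33, q = 0.027 by limma), a call lost after rescaling (q = 0.066), with array weights (q = 0.059) and without Luc replicate A (q = 0.079), Luc replicate D (q = 0.086) or either sham heart (q = 0.17 and 0.064). Lpl, with a log2 fold change of 0.09 (-0.32 to 0.50), and Mgll, with -0.24 (-0.75 to 0.27), were not called. In 8 of the 10 genes the Luc and sham hearts did not overlap, against 55.9% of all genes.

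Median-ratio rescaling within the table shifted the median of all genes by -0.17 in this comparison, and the calls over all genes changed from 3172 higher and 1103 lower to 2294 and 2047. After rescaling the log2 fold changes were 1.26 for Pnpla2, 1.69 for G0s2, 1.51 for Plin2, 0.93 for Dgat2 and 0.98 for Lipe, all called, and -0.86 for Ces1d (q = 0.011 by limma). The cardiomyocyte markers summed to 50660 to 51320 CPM in sham and 58510 to 73650 CPM in Luc hearts at 24 h, with 1 of 8 markers called higher and 1 lower. The adipocyte markers summed to 6.03 to 8.21 CPM in sham and 14.95 to 57.7 CPM in Luc hearts, with 3 of 5 tested markers called higher, and the part of this in the results was not tested. The 4 markers of atrial cardiomyocytes summed to 60.7 to 117 CPM in sham and 362 to 603 CPM in Luc hearts at 24 h, and 4 of 4 were called higher. The neutrophil and monocyte markers summed to 6.29 to 27.7 CPM and 279.5 to 1172 CPM, with 7 of 9 tested called higher, and the fibroblast markers to 767 to 773 CPM and 1026 to 1433 CPM, with 4 of 8 called higher.

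The genes therefore stood in another pattern at 24 h in the Luc hearts than in the uninjected hearts, side by side without a test across the tables. Dgat2 was at 2.16 ± 0.573-fold of its own sham in Luc hearts and at 0.355 ± 0.0943-fold in uninjected hearts. Plin5 was at 1.99 ± 0.486-fold and 0.480 ± 0.246-fold, and Lpl at 1.07 ± 0.144-fold and 0.419 ± 0.142-fold. Ces1d was at 0.640 ± 0.196-fold and 0.216 ± 0.0465-fold, and Plin2 was above sham in each, at 3.31 ± 0.314-fold and 5.73 ± 2.01-fold. The hearts also differ in the injection, in the library set and in the level of cardiomyocyte markers, which cannot be told apart.

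**Figure D3:**
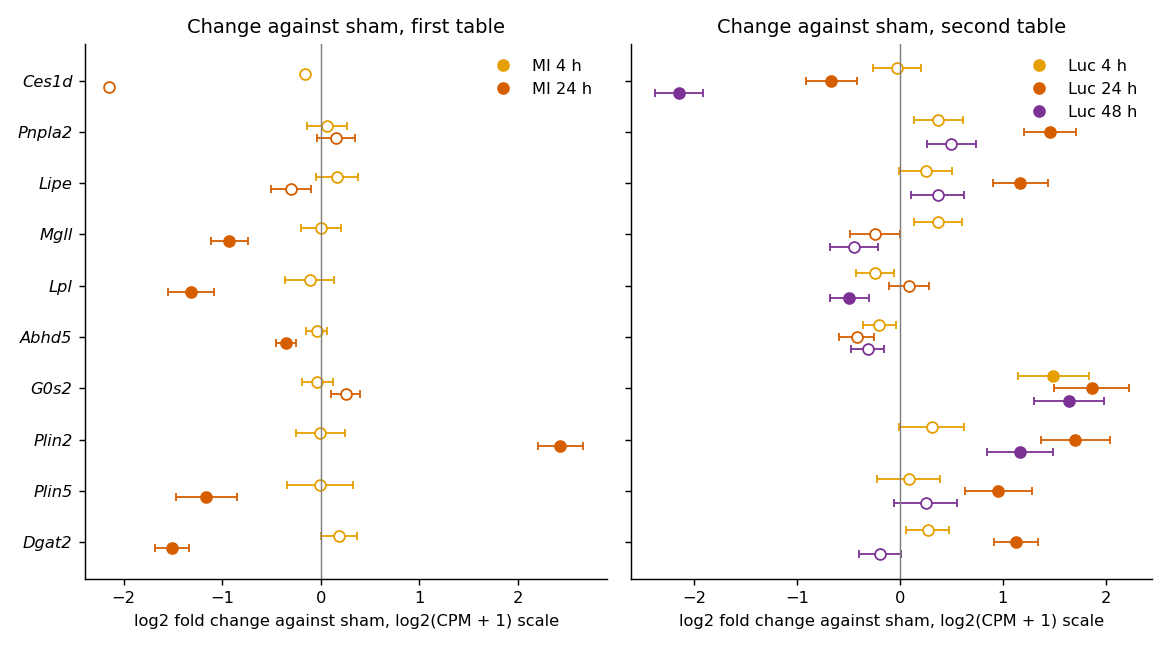
Log2 fold change of each gene against the sham hearts of its own table, with the SE from limma (bars), in the first table at 4 and 24 h (left) and in Luc hearts of the second table at 4, 24 and 48 h (right). Filled circles have a q value under 0.05, open circles do not, and Ces1d on the left was not tested and has no bar. Dgat2 and Plin5 lie left of 0 at 24 h in the first table and right of 0 at 24 h in the second, while Ces1d at 48 h lies at -2.15.

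By 48 h the Luc hearts held 2 genes above sham and 2 below (13.7% and 16.4% over all genes). G0s2 stayed up with 7.77, 12.7, 11.3 and 17.4 CPM (log2 fold change 1.64, SE 0.34, q = 0.0011 by limma). Plin2 held 146, 80.9, 176 and 49.97 CPM, a wide spread that lay above the sham hearts in all 4 (log2 fold change 1.17, SE 0.32, q = 0.0078 by limma). The call of Plin2 was lost without sham replicate 1 (q = 0.071) and in a model of the compared groups alone (q = 0.10). Ces1d was the lower gene described above. Lpl held 3206, 2497, 3432 and 2733 CPM against 4318 and 3976 CPM in sham hearts (log2 fold change -0.49, SE 0.19, q = 0.049 by limma), and 10 of 15 alternatives lost this call, among them leaving out Luc replicate 2 (q = 0.11) or 4 (q = 0.082) or sham replicate 1 (q = 0.24) or 2 (q = 0.10). Pnpla2 was not called (log2 fold change 0.50, q = 0.12 by limma), and ran from 0.05 to 0.95 over the alternatives. It was called higher without Luc replicate 4 (q = 0.026). Lipe was not called either (0.37, q = 0.3 by limma), and ran from -0.32 to 1.06. Mgll (-0.45, q = 0.16 by limma) was called lower with array weights (q = 0.043) and without Luc replicate 1 (q = 0.03). The neutrophil and monocyte markers summed to 221 to 681 CPM, against 6.29 to 27.7 CPM in sham hearts, with 9 of 9 tested higher. Of the cardiomyocyte markers 2 of 8 were called lower, and of the atrial markers 3 of 4 higher. Fibroblast markers had 4 of 8 called higher and 1 lower, macrophage markers 3 of 8 higher and adipocyte markers 2 of 5 tested higher. The part of these shifts in the 48 h calls was not tested.

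From 24 to 48 h, 6 of the 10 genes fell in Luc hearts and 0 rose, against 32.6% lower and 9.32% higher over all genes. Dgat2 fell from 293, 299 and 338 CPM to 174, 101, 138 and 94.4 CPM (log2 fold change -1.32, SE 0.18, q = 2.1e-05 by limma). Pnpla2 fell to 445, 271, 423 and 225 CPM (log2 fold change -0.96, SE 0.21, q = 0.0012 by limma). Lipe (-0.80), Plin5 (-0.71) and Lpl (-0.58) fell as well. Rescaling shifted the median of all genes by 0.22 here and changed the calls from 1170 higher and 4088 lower to 2003 and 2085. The calls of Ces1d, Dgat2 and Pnpla2 held after rescaling, with log2 fold changes of -1.24, -1.08 and -0.71, while those of Lipe (q = 0.059), Lpl (q = 0.13) and Plin5 (q = 0.19) were lost. Plin5 also lost its call without Luc 24 h replicate A (q = 0.13) or D (q = 0.15) or Luc 48 h replicate 2 (q = 0.14) or 4 (q = 0.15). The cardiomyocyte marker sum was 34070 to 45420 CPM at 48 h, and 7 of the 8 markers fell from 24 to 48 h. Atrial markers summed to 362 to 603 CPM at 24 h and 533 to 1169 CPM at 48 h. Of these 4 markers 1 was called higher and 3 lower. Macrophage markers had 5 of 8 called higher, endothelial markers 3 of 8 lower, and fibroblast markers 1 of 8 higher and 3 lower. Of 9 tested neutrophil and monocyte markers 4 were higher and 1 lower, and 5 of 5 erythrocyte markers were lower. The part of these shifts in the results was not tested.

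From 4 to 24 h, 5 of the 10 genes rose and 2 fell (24.5% and 7.8% over all genes). The genes that rose were Pnpla2, Lipe, Plin2, Plin5 and Dgat2, and Mgll fell beside Ces1d (log2 fold change -0.61, q = 0.027 by limma). Mgll lost this call without Luc 4 h replicate 1 (q = 0.064) or Luc 24 h replicate A (q = 0.081) or C (q = 0.12), and Plin5 without Luc 24 h replicate A (q = 0.076) or D (q = 0.077). Rescaling shifted the median of all genes by -0.15 and changed the calls over all genes from 3079 higher and 979 lower to 1969 and 1789. Atrial markers summed to 109 to 171 CPM at 4 h and 362 to 603 CPM at 24 h, with 4 of 4 called higher. Fibroblast markers had 3 of 8 called higher and erythrocyte markers 2 of 5 lower. Of the 8 cardiomyocyte markers 1 was called higher and 1 lower. The part of these shifts in the changes from 4 to 24 h was not tested.

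Whether the other genes changed by another amount than Ces1d was tested in the second table by fitting the difference in log2(CPM + 1) between each gene and Ces1d in the same library. At 24 h in Luc hearts, 7 of the 9 genes had a change above that of Ces1d, whereas 52.7% of all genes differed from Ces1d in either direction. The difference was largest for G0s2 (log2 2.53, SE 0.44) and was not called for Mgll (0.43, 95% confidence interval -0.24 to 1.09) and Abhd5 (0.25, -0.35 to 0.84). The call of Lpl (0.76, q = 0.033 by limma) was lost without Luc replicate A (q = 0.21), without sham replicate 1 (q = 0.19) or 2 (q = 0.069) and without a trend (q = 0.053), and that of Lipe without sham replicate 1 (q = 0.096). At 48 h all 9 had a change above that of Ces1d, from 1.66 (SE 0.28) for Lpl to 3.79 (SE 0.415) for G0s2. At that time 99.0% of all genes differed from Ces1d, so a count of 9 of 9 is near the background.

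AC and Luc hearts were compared within each time. At 4 h and at 24 h, 0 of the 10 genes were called and 0 had an unadjusted p under 0.05, with 0.00796% of all genes called in either direction at each time. At 4 h the AC hearts held 150, 122, 120 and 140 CPM of Ces1d, which overlapped with the Luc hearts (log2 fold change AC against Luc -0.21, 95% confidence interval -0.61 to 0.19). At 24 h they held 103, 63.6 and 74.2 CPM (-0.315, -0.774 to 0.145). The AC heart of replicate D at 24 h stood apart in its hepatocyte markers, with a sum of 239 CPM, an Alb level of 113 CPM and Ces1c at 3.85 CPM, against a sum of at most 10.9 CPM in every other library. Its Ces1d level of 74.2 CPM lay between those of the other two AC hearts.

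At 48 h, 6 of the 10 genes were lower in AC than in Luc hearts and 0 were higher, whereas over all genes 12.1% were higher and 3.27% lower. Pnpla2 differed most, with 445, 271, 423 and 225 CPM in Luc hearts and 146, 146, 132 and 150 CPM in AC hearts (0.421 ± 0.137-fold, log2 fold change -1.19, SE 0.20, q = 3.7e-04 by limma). The AC hearts lay close together and below all Luc hearts. Plin5 held 147, 61.5, 127 and 55.7 CPM in Luc and 52.2, 42.7, 30.9 and 43.6 CPM in AC hearts (log2 fold change -1.09, SE 0.25, q = 0.0065 by limma). Dgat2 held 174, 101, 138 and 94.4 CPM in Luc and 67.2, 65.2, 55.6 and 70.4 CPM in AC hearts (log2 fold change -0.92, SE 0.17, q = 9.5e-04 by limma).

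Lpl, Lipe and Ces1d were also lower in AC hearts at 48 h. Lpl held 1544, 1806, 2272 and 2129 CPM, below every Luc heart (log2 fold change -0.62, SE 0.15, q = 0.0095 by limma). Lipe held 19.4, 22.2, 20.9 and 21.0 CPM in AC hearts and between 26.7 and 37.8 CPM in 3 Luc hearts, with Luc replicate 3 at 40 CPM (log2 fold change -0.64, SE 0.21, q = 0.041 by limma). Ces1d held 25.1, 17.1, 24.5 and 24.5 CPM in AC and 47.6, 30.6, 30.6 and 31.4 CPM in Luc hearts, without overlap (0.651 ± 0.190-fold, log2 fold change -0.59, SE 0.19, q = 0.041 by limma). The groups did not overlap in these 6 genes, against 19.1% of all genes.

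The calls of Lipe and Ces1d were lost when 1 of several libraries was left out. For Ces1d q was 0.16 without Luc replicate 1, 0.069 without Luc replicate 3, and 0.15, 0.066 and 0.064 without AC replicates 2, 4 and 5. For Lipe q was 0.12 and 0.15 without Luc replicates 1 and 3, and 0.081, 0.075, 0.085 and 0.081 without AC replicates 1, 2, 4 and 5. In a model of the compared groups alone, q was 0.059 for Ces1d and 0.057 for Lpl. For Ces1d q was 0.055 with array weights and 0.052 without the subtraction of 1, where Lipe had q = 0.051 (limma). Of 17 alternatives 9 lost the call of Ces1d, 8 that of Lipe and 2 that of Lpl. The replicate block was among them for each of these genes.

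Mgll, Abhd5, G0s2 and Plin2 were not called between AC and Luc hearts at 48 h. Their log2 fold changes were -0.31 for Mgll (95% confidence interval -0.70 to 0.09), -0.10 for Abhd5 (-0.37 to 0.17), 0.13 for G0s2 (-0.45 to 0.71) and -0.15 for Plin2 (-0.69 to 0.39). Plin2 spread from 49.97 to 176 CPM in Luc and from 74.0 to 107 CPM in AC hearts. The median log2 fold change was -0.60 over the 10 genes and 0.14 over all genes. Rescaling shifted the median of all genes by -0.13 and changed the calls from 1516 higher and 410 lower to 823 and 802, and the same 6 genes stayed called, Pnpla2 with a log2 fold change of -1.33 and Ces1d with -0.73. Against the change of Ces1d itself, only Pnpla2 was called, with a further difference of -0.60 (SE 0.25, q = 0.036 by limma). The comparison called 66.5% of all genes, 8305 with a change above that of Ces1d and 49 below it, as Pnpla2 was. This call of Pnpla2 was lost without Luc replicate 1 (q = 0.077) or 3 (q = 0.14) and without AC replicate 1 (q = 0.066), 4 (q = 0.085) or 5 (q = 0.063).

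**Figure D4:**
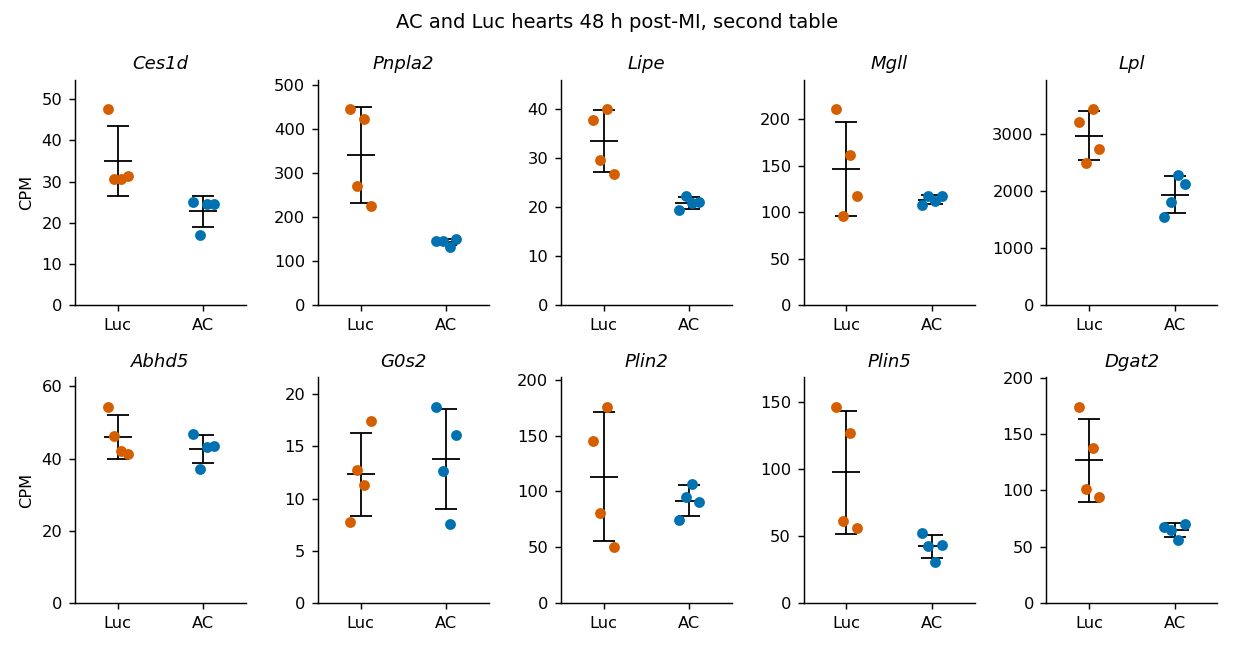
Level in CPM of the 10 genes in each of the 4 Luc (orange) and 4 AC (blue) hearts 48 h post-MI, with the mean and SD of each group (black); each axis starts at 0. In Ces1d, Pnpla2, Lipe, Lpl, Plin5 and Dgat2 all AC hearts lie below all Luc hearts, and in Mgll, Abhd5, G0s2 and Plin2 the groups overlap.

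The difference between AC and Luc hearts at 48 h was set against that at the earlier times by an interaction term. Compared with 4 h it was more negative in Pnpla2 (log2 difference -1.22, SE 0.28, q = 0.016 by limma) and Dgat2 (-0.97, SE 0.24, q = 0.025), 2 of 10 genes against 3.35% of all genes. Dgat2 lost this call without AC 4 h replicate 3 (q = 0.060), Luc 4 h replicate 3 (q = 0.056), AC 48 h replicate 2 (q = 0.053) or 4 (q = 0.067), or Luc 48 h replicate 1 (q = 0.056) or 3 (q = 0.065). Compared with 24 h, 1 gene was called, Dgat2 (-0.98, SE 0.26, q = 0.043 by limma), against 2.56% of all genes. That call was lost when any library of these 4 groups was left out, with q up to 0.11 without AC 24 h replicate A, except for AC 24 h replicate C and Luc 48 h replicates 2 and 4. Rescaling changed the interaction calls over all genes from 362 higher and 59 lower to 267 and 187 against 4 h, and from 280 and 42 to 157 and 125 against 24 h. Between 24 and 4 h, 0 of the 10 genes were called (0.00796% of all genes). For Ces1d the interaction was -0.38 (95% confidence interval -0.94 to 0.19) against 4 h and -0.27 (-0.88 to 0.33) against 24 h.

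Cell markers moved with the AC comparison at 48 h. The cardiomyocyte markers summed to 34070 to 45420 CPM in Luc and 25690 to 31310 CPM in AC hearts, with 2 of 8 called lower. The fibroblast markers summed to 880 to 1343 CPM in Luc and 1621 to 2539 CPM in AC hearts, with 5 of 8 called higher, and the macrophage markers to 223 to 305 and 424 to 593 CPM, with 5 of 8 called higher and 1 lower. The adipocyte markers summed to 6.75 to 31.0 CPM and 14.8 to 26.7 CPM, with 0 of 5 tested called. The atrial markers summed to 533 to 1169 CPM in Luc and 1227 to 2966 CPM in AC hearts, with 1 of 4 called higher. The part of these shifts in the lower level of the 6 genes was not tested.

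The wider pathway was described with 73 listed genes of carboxylesterases, intracellular lipases, endothelial lipolysis, droplet proteins and triglyceride synthesis, which include the members. In uninjected hearts at 24 h, 14 of 54 tested genes rose and 26 fell, where 35.6% of all genes were called higher and 30.3% lower, with a median log2 fold change of -0.32 against 0.04 over all genes. Of 13 tested droplet protein genes 2 rose and 8 fell, and of 13 intracellular lipases and regulators 2 rose and 6 fell. The genes that rose most were Angptl4, a secreted inhibitor of Lpl, from 4.41 ± 4.45 to 133 ± 32.8 CPM (30.2-fold), and Hilpda, a hypoxia-inducible droplet protein that inhibits adipose triglyceride lipase, from 2.84 ± 0.0976 to 57.5 ± 20.2 CPM (20.2-fold). Of the tested pathway genes, which leave out Ces1d in this table, those that fell most were Lpin1, a phosphatidate phosphatase, with a log2 fold change of -2.60 (q = 1.4e-06 by limma), Gpam, which starts glycerolipid synthesis in mitochondria, with -2.04, and Vldlr, a lipoprotein receptor, with -1.60.

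In Luc hearts, 2 of 56 tested pathway genes rose at 4 h and 0 fell, 18 rose and 7 fell at 24 h, and 8 rose and 11 fell at 48 h. Over all genes 1.25% were called higher and 0.295% lower at 4 h, 25.3% and 8.79% at 24 h, and 13.7% and 16.4% at 48 h, so the counts at 24 and 48 h lie near the background. Angptl4 was among the genes that rose most at each time, with log2 fold changes of 1.91 (SE 0.40) at 4 h, 3.53 (SE 0.42) at 24 h and 2.16 (SE 0.40) at 48 h. At 24 h the droplet protein Plin4 rose from 181 ± 100 to 626 ± 161 CPM (log2 fold change 1.87). Hilpda rose at 48 h, with a log2 fold change of 2.27 (SE 0.49) and a wide spread of 25.1 ± 20.4 CPM. Vldlr fell at 24 h (-0.999) and 48 h (-0.90), the lipase Ddhd2 at 24 h (-0.70) and 48 h (-0.71), and the droplet hydrolase Ldah at 24 h (-0.88). Ces1d was the pathway gene that fell most at 48 h, among those with a mean of at least 10 CPM. The 24 and 48 h comparisons share their sham hearts.

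Between AC and Luc hearts at 48 h, 2 of the 56 pathway genes were higher and 11 lower, where 12.1% of all genes were called higher and 3.27% lower, with a median of -0.12 against 0.14 over all genes. The higher genes were Acsl5, an acyl-CoA synthetase (log2 fold change 0.83, SE 0.19), and Bscl2, the droplet assembly protein seipin (0.46, SE 0.15). Beside Pnpla2 and Plin5, Plin4 was lowest, with 139 ± 18.5 CPM in AC and 303 ± 104 CPM in Luc hearts (log2 fold change -1.07, q = 0.0083 by limma). At 4 h and 24 h 0 of the 56 genes were called between AC and Luc hearts, as were 0.00796% of all genes at each time.

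The genes most like Ces1d were named by the Pearson correlation of log2(CPM + 1) over the libraries of a table, as a description. The libraries share their group and their normalization, so genes that moved with time score high. Over the 10 libraries of the first table these were Reep5 (r = 0.989), Svip (0.989), Isoc1 (0.987), Ccng1 (0.985) and Txndc16 (0.985). Over the 24 libraries of the second they were Bckdhb (0.975), Sord (0.974), Fam213a (0.973), Pcca (0.969) and Mipep (0.966). Bckdhb held 76.6 ± 3.92 CPM in sham hearts and 37.2 ± 6.58 CPM in Luc and 27.8 ± 2.79 CPM in AC hearts at 48 h. Among the members, Dgat2 (0.941), Lpl (0.92) and Mgll (0.904) were most like Ces1d in the first table, and Mgll (0.789) and Lpl (0.732) in the second. Plin2 ran opposite to Ces1d in the first table (-0.963) and less so in the second (-0.419).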

How the data were processed

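LV RNA of 10 mice (first table) and 24 mice (second table) was analysed, with groups taken from the sample labels. For the first table, the authors aligned single reads to mm10 with STAR, counted them on UCSC RefSeq genes with the Partek expectation-maximization algorithm and normalized the counts by TMM, giving the deposited CPM. The labels name a stranded kit and the methods another, and the use of strand in counting is not given in the sources used here. In the second table every deposited CPM value was raised by 1, so 1 was taken off before use. Estimated reads on the listed genes were 12553519 to 18952669 per library in the first table, and the depth of the second is unknown. Among low values (under 1 CPM), 82.7% came out as whole reads with a tolerance of 0.02, too few for a count test.

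Tests used limma 3.58.1 under R 4.3.3, with a trended prior variance, on the log2(CPM + 1) scale. Genes averaging 1 CPM or more were tested, with all groups of a table in 1 model and Benjamini-Hochberg adjustment over all genes tested. On this scale the change of low genes is understated. Fold changes are ratios of group means of CPM. The script was tested on simulated data. Named genes were the members, the Ces1 genes, up to 3 pathway genes that rose and 3 that fell most (mean of at least 10 CPM) in each comparison with sham, and the 5 genes most correlated with Ces1d. The same choice of pathway genes in AC against Luc hearts was added after the values were seen. The members, lists and tests were chosen with earlier results of these data known. Libraries come from different mice, since hearts were collected at each time. Alternatives were a pseudocount of 0.1, a filter of 5 CPM or none, rescaling, a model of the compared groups alone, no trend, array weights, no subtraction of 1, a replicate block and each library left out.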

Additional observations from a re-analysis of the deposited data

Results flagged for a closer look

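In 50 groups of 4 libraries, 2 libraries lay far from the others of their group, and about 1 group in 20 does so by chance. Ces1d was 47.59 CPM in Luc replicate 1 at 48 h, with the other hearts between 30.55 and 31.36 CPM, and 17.1 CPM in AC replicate 2 at 48 h, with the others between 24.48 and 25.14 CPM. The call of Ces1d between AC and Luc hearts at 48 h is given without each of them in the report.

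The change after MI differed between times in 22 tests by limma (q value under 0.05), listed here as log2 differences. In uninjected hearts, 24 h minus 4 h was 2.435 for Plin2, -1.7 for Dgat2, -1.206 for Lpl, -1.157 for Plin5, -0.933 for Mgll and -0.309 for Abhd5. In Luc hearts, 24 h minus 4 h was 1.395 for Plin2, 1.088 for Pnpla2, 0.922 for Lipe, 0.871 for Plin5, 0.857 for Dgat2, -0.641 for Ces1d and -0.61 for Mgll. In Luc hearts, 48 h minus 24 h was -1.483 for Ces1d, -1.323 for Dgat2, -0.96 for Pnpla2, -0.802 for Lipe, -0.706 for Plin5 and -0.581 for Lpl. The difference between AC and Luc hearts changed from 4 to 48 h by -1.219 in Pnpla2 and -0.974 in Dgat2, and from 24 to 48 h by -0.976 in Dgat2.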

How the results depend on the processing

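No called change of a member turned its direction under the alternatives run. Over the log2 fold changes of the members, leaving out a library kept the side of the threshold in 1250 cases, lost a call in 69 and added one in 22, and the other alternatives kept it in 1375, lost a call in 37 and added one in 22. The kept cases include Ces1d in the first table, which was not tested. It was counted as kept where its log2 fold change moved by less than the combined SD of the 2 groups. The numbers of members called that moved by over 1.5 times were as follows, and the cause was not tested. For Luc 4 h against sham the number was 1, and 0 with array weights or without the subtraction of 1, and 0 to 1 with a library left out. For Luc 24 h against sham it was 7, and 4 to 6 with a library left out (4 without sham replicate 1). For Luc 48 h against sham it was 4, 2 in the compared groups alone, and 2 to 5 with a library left out. For Luc 24 h against 4 h it was 7, and 4 to 7 with a library left out (4 without Luc 24 h replicate A). For Luc 48 h against 24 h it was 6, and 3 after median-ratio rescaling. For AC against Luc at 48 h it was 6, and 3 with the replicate block, which ended the calls of Ces1d (q = 0.12), Lipe (q = 0.16) and Lpl (q = 0.075). For the interaction of 48 with 4 h it was 2, 4 after rescaling or with array weights, 1 with the replicate block, and 1 to 3 with a library left out. For the interaction of 48 with 24 h it was 1, 0 with a pseudocount of 0.1, a filter of 5 CPM, the compared groups alone or the replicate block, 2 with array weights, and 0 to 3 with a library left out. Against the change of Ces1d at 48 h between AC and Luc hearts it was 1, 2 without a filter, in the compared groups alone or without the subtraction of 1, 5 with array weights, and 0 to 3 with a library left out (0 without AC replicate 1), and the block ended the call of Pnpla2 (q = 0.20). In uninjected hearts at 24 against 4 h, the block ended the call of Abhd5 (q = 0.11) and added one of Lipe (q = 0.034). The replicate numbers were not taken to pair the hearts, which are different mice. The correlations of same-numbered AC and Luc libraries were 0.252, 0.23, -0.141 and 0.101 at 4 h, -0.019, -0.071 and 0.092 at 24 h and 0.189, -0.206 and 0.197 at 48 h. Between times they reached 0.55, 0.445 and -0.201 for AC hearts at 4 and 48 h, and with sham 0.433 and 0.334 for AC hearts at 4 h and 0.417 and 0.498 at 48 h. With 2 sham hearts in the second table, each of them weighs heavily in every comparison with sham, and the unknown depth of that table leaves the counting error of low genes such as G0s2 unknown.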
